A study of Mus musculus with 2 samples.

Results

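Merlin, encoded by Nf2, and the ezrin, radixin and moesin proteins, encoded by Ezr, Rdx and Msn, were followed as transcripts in tumour endothelial cells. These 4 genes were taken by name, because they form one family of FERM-domain linkers between the plasma membrane and the cortical actin skeleton. All 4 were present among the 19831 genes of both tables. The cells came from tumours of adult C57BL/6 mice and were selected for CD31, an adhesion receptor at endothelial junctions. Their RNA was then read cell by cell from the 3′ end on a 10x Genomics droplet system. One library was labelled NF2 KO, a knockout of Nf2, and 1 was labelled control; nothing else in the labels separates them. The tumour type, the number of animals and whether they were pooled, the exons removed and the way the deletion was driven are not given in the sources used here.

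ERM proteins switch between a closed form, in which the FERM domain masks the actin-binding tail, and an open form that is held by phosphorylation of a threonine in that tail and by membrane phosphoinositides. In the open form they tie receptors such as CD44 and ICAMs to actin and so shape the endothelial cortex, its microvilli and its docking sites for leukocytes. Merlin shares the FERM domain but lacks the C-terminal actin-binding site of the other proteins, and it acts upstream of the Hippo kinases that restrain YAP and TAZ.

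The deposited tables held 3368 cells in the NF2 KO library and 2826 cells in the control library, and the barcodes of each library carried 1 of 2 run numbers of no stated meaning. The libraries shared 1 cell barcode. Run 1 of the control stood apart in depth, with a median of 2746 UMIs (molecules counted once each) per cell against 14337 to 19409 UMIs in the other 3 runs. Cells of shallow or leukocyte-led clusters and cells under 5000 UMIs were therefore left out. The 2628 NF2 KO cells and 1257 control cells that remained had median depths of 17773 and 19195 UMIs, and 33.0% of the cells of control run 1 were among them, against 73.8% to 80.1% in the other runs. All 19 general endothelial markers passed the level filter in these cells, and they summed to 9486 CPM in NF2 KO and 11714 CPM in control cells. CPM is the number of UMIs of a gene per 1000000 UMIs of the same cells; since each molecule gives 1 tag at its 3′ end, it is a level per molecule that needs no division by transcript length. With 1 library per group no test between the conditions can be made, no p-value is given, and the brackets after a value are 95% intervals for counting error only.

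Moesin was the most abundant transcript of the family in both libraries and stood lower in the NF2 KO library, while radixin and Nf2 itself were close to equal and ezrin was scarce. The rule for calling a gene required a mean level of at least 20 CPM, a ratio of NF2 KO over control of at least 1.5 in either direction and a counting interval that excludes 1. Of 5837 genes with enough level, 8.14% were called, 2.74% as higher and 5.4% as lower in NF2 KO. Of the 3 members with enough level, Nf2, Rdx and Msn, none was called, and the median log2 ratio of these 3 was −0.11, against −0.03 over all genes tested. Ezr had a mean level of 8.42 CPM and did not pass the level filter. With a minimum of 5 CPM it was tested and called higher, as 3.83% of 9249 genes were; the calls of the other 3 members did not change.

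Nf2 (ENSMUSG00000009073.16) lies on chromosome 11 at 4765845 to 4849536, minus strand, of GRCm38. Its level was 20.3 and 20.4 CPM in runs 1 and 2 of NF2 KO, against 21.2 and 22.8 CPM in runs 1 and 2 of control. The ratio was 0.925 (0.837 to 1.02), from 1076 and 628 UMIs. Both NF2 KO runs lay just below both control runs. For 64.8% of all tested genes the NF2 KO runs lay on one side of both control runs, and for 37.9% they lay below. A 3′ tag can lie outside the exons removed, so the level of this transcript does not check the labels, and what is called NF2 KO below is the library labelled so.

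Ezr (ENSMUSG00000052397.8, chromosome 17, 6738041 to 6782784, minus strand) encodes ezrin, the ERM protein best known from epithelial microvilli. It stood at 12.6 and 9.04 CPM in runs 1 and 2 of NF2 KO, against 6.68 and 6.40 CPM in runs 1 and 2 of control. Both NF2 KO runs were above both control runs, which held for 26.8% of the genes tested, and the NF2 KO runs differed from each other more than the control runs did. Pooled, the ratio was 1.58 (1.33 to 1.87), from 544 and 186 UMIs. It was 1.94 without run 2 of NF2 KO and 1.38 without run 1 of NF2 KO. The ratio was 1.10 when both libraries were given the same cluster weights and 1.24 over the 5 clusters with at least 50 cells of each library. The same weights lean on few counts: cluster 0 gave 1 UMI of Ezr in 17 control cells. Cluster 4 gave 1 UMI in 10 NF2 KO cells. The sum of epithelial markers was also higher in NF2 KO, mostly through 1 gene. The 8 measured markers summed to 34.1 CPM in NF2 KO and 7.90 CPM in control cells. Of that, the tight junction gene Cldn4 made up 30.6 CPM in NF2 KO and 5.37 CPM in control cells, and Epcam and Cdh1 had 4 and 2 UMIs in NF2 KO and 1 UMI each in control cells. The part of epithelial RNA in the level of Ezr was not tested. The 3′ end of Ezr touches that of Sytl3 on the opposite strand.

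Rdx (ENSMUSG00000032050.17, chromosome 9, 52047173 to 52088735, plus strand) encodes radixin. Its level was 181 and 192 CPM in runs 1 and 2 of NF2 KO, against 192 and 172 CPM in runs 1 and 2 of control. The runs of the libraries overlapped, and the pooled ratio was 1.04 (1.003 to 1.07). It lay below 1, at 0.981, without run 2 of control and, at 0.980, with the same cluster weights.

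Msn (ENSMUSG00000031207.16, chromosome X, 96096042 to 96168552, plus strand) encodes moesin, the ERM protein that prevails in endothelium and leukocytes. It had 652 and 744 CPM in runs 1 and 2 of NF2 KO, against 1001 and 961 CPM in runs 1 and 2 of control. Both NF2 KO runs were below both control runs, which held for 37.9% of all tested genes, and the 4 pairings of an NF2 KO run with a control run gave ratios from 0.651 to 0.774. Pooled, the ratio was 0.726 (0.715 to 0.737), which is 1.38-fold lower and short of the 1.5-fold rule. In rank from the highest ratio down, Msn was number 5375 of 5837 genes. The difference was present across the range of cells: the 10th, 50th and 90th percentiles of the level per cell were 288, 643 and 1144 CPM in NF2 KO, against 467, 868 and 1527 CPM in control cells. The run-to-run ratio of Msn, run 2 over run 1, was 1.14 in NF2 KO and 0.960 in control. By the same rule 1.19% of tested genes were called between the NF2 KO runs and 0.784% between the control runs. None of Nf2, Rdx and Msn was called between runs. Ezr was below the level filter and could not be called; its run-to-run ratio in NF2 KO was 0.715 (0.601 to 0.851).

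**Figure D1:**
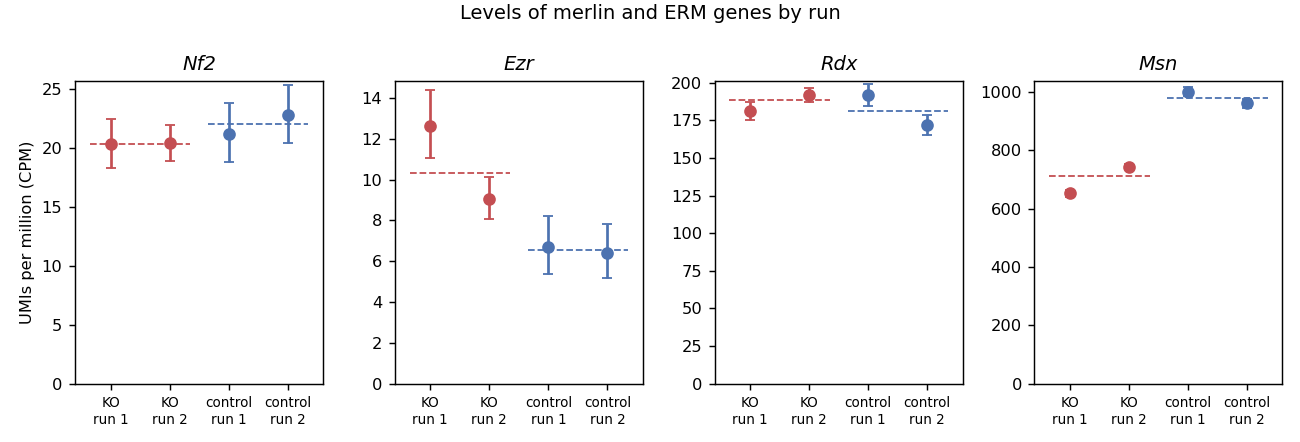
Level of each gene in CPM (vertical axes from 0) in runs 1 and 2 of the NF2 KO and control libraries; points are runs with 95% counting intervals and dashed lines the pooled level of a library. Msn in both NF2 KO runs (652 and 744 CPM) lay below both control runs (1001 and 961 CPM), whereas the runs of the libraries overlapped for Rdx.

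Within the ERM trio the balance therefore differed. Moesin made up 78.2% (77.8 to 78.6) of the trio's UMIs in NF2 KO and 83.9% (83.5 to 84.3) in control cells. Radixin made up 20.7% (20.3 to 21.1) in NF2 KO and 15.5% (15.1 to 15.9) in control cells, and ezrin 1.13% in NF2 KO and 0.559% in control cells. In the separate runs the share of moesin was 77.1% and 78.7% in NF2 KO, against 83.4% and 84.3% in control, with no overlap. In level, 64.8% of all tested genes had both NF2 KO runs on one side of both control runs. For shares within a gene family no such value was computed. The shares of the trio are tied to each other: the level of Msn was lower by a ratio of 0.726 while that of Rdx was near equal, at 1.04.

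The clusters gave the next view. Without integration of the libraries, 9 clusters were retained with enough cells, and some were mostly of 1 library: cluster 0, led by Cldn4 and F2rl1, held 848 NF2 KO and 17 control cells, and cluster 4, led by Gal and Kcnj8, held 10 NF2 KO and 494 control cells. With 1 library per group, such clusters cannot be told apart from the libraries they come from. Clusters 1, 3, 7, 8 and 9 held at least 50 cells of each library. Msn was lower in NF2 KO in each of these 5 clusters, with every interval below 1. In cluster 1, led by the capillary genes Ednrb and Ramp3, it had 669 CPM in NF2 KO and 949.6 CPM in control cells, a ratio of 0.704 (0.674 to 0.736). In cluster 3, led by the interferon-induced Cd74, Ubd and Cxcl9, the values were 722 CPM in NF2 KO and 889.8 CPM in control cells, a ratio of 0.812 (0.777 to 0.848). In cluster 8, led by the mitotic genes Cdc20 and Cenpa, they were 625 CPM in NF2 KO and 936 CPM in control cells, a ratio of 0.668 (0.626 to 0.713). Clusters 7 and 9 gave ratios of 0.786 and 0.711. In these clusters the level of Msn in NF2 KO was between 625 and 832 CPM, against 889.8 to 1059 CPM in control, with no overlap. Of all 5837 tested genes, 6.44% had every interval below 1 in these clusters and 2.88% had NF2 KO below control with no overlap. Counting intervals are narrow for abundant genes, and among the 277 genes with a mean of at least 500 CPM these shares were 15.2% and 4.69%. Cluster 4, with 10 NF2 KO cells, gave 1.03 (0.907 to 1.16).

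For Ezr the ratio was above 1 in 4 of these 5 clusters, and the interval excluded 1 in cluster 8 alone, at 2.02 (1.07 to 4.07). In cluster 1 Ezr had 8.88 CPM in NF2 KO and 11.7 CPM in control cells, a ratio of 0.756 (0.507 to 1.14). Its lowest level over both libraries, 4.17 CPM, was in cluster 4, which held 494 of the 1257 control cells. Its highest, 16.9 CPM, was in cluster 5, which held 414 NF2 KO and 36 control cells. The leading genes of cluster 5 were the venular Ackr1 and Selp but also Tagln, a marker of smooth muscle. Which of its cells held the Ezr counts was not tested. Macrophage markers summed to 218 CPM in cluster 5 and to 48.8 to 89.5 CPM in the other 8 clusters; their part in the level of Ezr was not tested.

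Rdx was higher in NF2 KO in 4 of the 5 clusters, with an interval above 1 in clusters 3 and 8, at 1.26 (1.15 to 1.38) and 1.15 (1.02 to 1.29). In clusters with under 50 control cells Rdx was lower in NF2 KO. The ratios were 0.761 (0.594 to 0.990) in cluster 0, 0.817 (0.686 to 0.979) in cluster 5 and 0.685 (0.534 to 0.880) in cluster 10. Cluster 4, with 10 NF2 KO cells, gave a Rdx ratio of 1.18 (0.864 to 1.57). Its order over both libraries ran from 144 CPM in cluster 10, led by the interferon-induced Rsad2 and Ifit3, to 261 CPM in cluster 9, led by histone genes and Top2a, and 263 CPM in cluster 8. The 2 highest, both led by genes of dividing cells, did not differ beyond their counting intervals. Msn ran from 703 CPM in cluster 0 to 1024 CPM in cluster 4, a 1.46-fold range and the narrowest of the family. Nf2 ran from 9.77 CPM in cluster 10 and 10.1 CPM in cluster 7, led by the hypoxia genes Vegfa, Ero1l and Bnip3, to 25.1 CPM in cluster 8. The value of cluster 10 rests on 18 UMIs, 14 in 64 NF2 KO cells and 4 in 33 control cells. Apart from clusters 10 and 7 at the low end, Nf2 lay between 19.3 and 25.1 CPM, and 7 of the 8 pairs of neighbours in that order had overlapping intervals. None of the 5 clusters gave an interval for the Nf2 ratio that excluded 1.

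**Figure D2:**
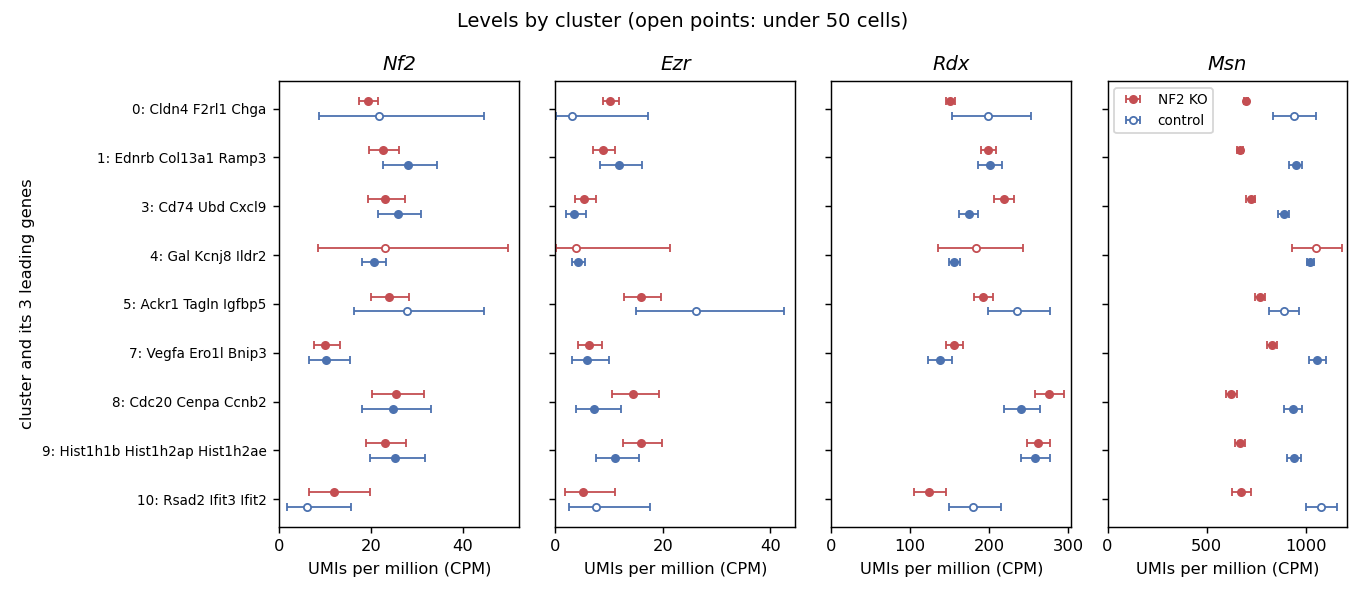
Level in CPM (horizontal axes from 0) of each gene in the 9 clusters, named by their 3 leading genes; red is NF2 KO, drawn above blue for control, bars are 95% counting intervals and open points have under 50 cells. Msn in NF2 KO lay left of control in clusters 1, 3, 7, 8 and 9, and Nf2 was low in clusters 7 and 10 in both libraries. Cluster 10 gave 14 UMIs of Nf2 in NF2 KO and 4 UMIs in control.

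Cells were also ranked by 5 marker scores, each the mean standardized level of the state's markers, and the highest 10% of each library (263 NF2 KO and 126 control cells) were set against the other cells of that library. These sets are ranges of a score and not kinds of cell. Between 13 and 74 cells of a library lay within 0.1 SD of a score's limit. The mitotic set came mostly from clusters 8 and 9, the hypoxic set from cluster 7 and the interferon set from clusters 3 and 10, in both libraries. The venous set came mostly from cluster 5 in NF2 KO (158 cells) and from clusters 1 and 5 in control (38 and 34 cells). The capillary set was led by cluster 5 in NF2 KO (93 cells) and by cluster 1 in control (45 cells), so for that set the same score drew on cells of different leading genes. None of the 4 members was among the markers.

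In hypoxic cells Nf2 was scarcer than in the other cells, in both libraries. In NF2 KO it stood at 13.0 and 8.16 CPM in hypoxic cells of runs 1 and 2, against 21.0 and 21.8 CPM in the other cells of those runs. In control it stood at 9.78 and 11.9 CPM in hypoxic cells of runs 1 and 2, against 22.8 and 23.9 CPM in the other cells. Hypoxic cells were below the other cells in every run, and how many other genes did the same was not computed. The general endothelial markers also summed to less, at 6968 CPM in hypoxic cells and 9752 CPM in other cells of NF2 KO, and at 9930 CPM in hypoxic cells and 11930 CPM in other cells of control; what this has to do with Nf2 was not tested. The ratio of hypoxic over other cells was 0.451 (0.331 to 0.601) in NF2 KO, from 49 UMIs, and 0.459 (0.313 to 0.652) in control, from 33 UMIs. The NF2 KO library over the control library gave 0.903 (0.569 to 1.45) within hypoxic cells. With mean levels under 20 CPM these contrasts fell below the level filter. Many genes differed in hypoxic cells: 31.8% of tested genes were called in NF2 KO and 26.3% in control, and 13.4% were lower in both libraries. When the cells of a library were ordered by the hypoxic score and cut into 5 equal parts, Nf2 lay between 19.7 and 28.3 CPM in the lowest 4 parts. In the highest part it was at 14.4 CPM in NF2 KO and 14.1 CPM in control.

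Ezr was also lower in hypoxic cells of NF2 KO, at 5.35 CPM against 10.8 CPM in the other cells, a ratio of 0.4935 (0.322 to 0.727). In control it had 5.54 CPM in hypoxic cells and 6.65 CPM in the other cells, the hypoxic cells giving 17 UMIs, and the ratio of 0.833 had an interval (0.474 to 1.37) that includes 1. Over 5 equal parts of the hypoxic score, from low to high, Ezr in control had 12.3, 8.55, 4.32, 4.41 and 5.63 CPM. In NF2 KO the parts had 12.0, 11.6, 11.5, 9.78 and 7.31 CPM. Ezr was thus lower in the highest part than in the lowest part in both libraries. Epithelial markers, mostly Cldn4, summed to 72.3 CPM in hypoxic cells and 30.1 CPM in other cells of NF2 KO, and to 19.2 CPM in hypoxic cells and 6.53 CPM in other cells of control; their part in these ratios was not tested. Rdx was slightly lower in hypoxic cells, with ratios of 0.849 (0.790 to 0.912) in NF2 KO and 0.7996 (0.725 to 0.881) in control. Msn went the other way in both libraries. It had 747 and 901 CPM in hypoxic cells of NF2 KO runs 1 and 2, against 643 and 726 CPM in the other cells, a pooled ratio of 1.22 (1.18 to 1.26). In control it had 1088 and 1033 CPM in hypoxic cells of runs 1 and 2, against 989 and 953 CPM in the other cells, a ratio of 1.10 (1.06 to 1.14). None of these Rdx and Msn contrasts reached 1.5-fold.

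The 250 bases before 1 RefSeq start of each of the 4 members were searched on both strands for ACGTG and GCGTG. These are the core letters bound by hypoxia-inducible factors. Nf2 and Rdx each have 2 RefSeq starts, and only the start nearest the 5′ end of the gene was searched. The windows of Nf2, Ezr and Msn are printed below. The sequences are from RefSeq on GRCm38.p6 and are printed 5′ to 3′ on the strand of the gene, with matches in capitals. They cover chr11:4849545-4849794 (minus strand) for Nf2, chr17:6782781-6783030 (minus strand) for Ezr and chrX:96095795-96096044 (plus strand) for Msn.
Nf2: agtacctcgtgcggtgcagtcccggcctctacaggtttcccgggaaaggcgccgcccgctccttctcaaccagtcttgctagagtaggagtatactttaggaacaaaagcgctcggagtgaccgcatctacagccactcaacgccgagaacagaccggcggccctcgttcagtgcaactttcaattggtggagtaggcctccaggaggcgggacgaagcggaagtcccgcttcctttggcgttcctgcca
Ezr: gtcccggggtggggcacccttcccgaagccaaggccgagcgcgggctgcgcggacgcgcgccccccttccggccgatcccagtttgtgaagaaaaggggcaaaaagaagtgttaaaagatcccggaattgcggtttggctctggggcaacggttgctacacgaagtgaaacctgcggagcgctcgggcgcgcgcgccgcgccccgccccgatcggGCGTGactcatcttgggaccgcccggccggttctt
Msn: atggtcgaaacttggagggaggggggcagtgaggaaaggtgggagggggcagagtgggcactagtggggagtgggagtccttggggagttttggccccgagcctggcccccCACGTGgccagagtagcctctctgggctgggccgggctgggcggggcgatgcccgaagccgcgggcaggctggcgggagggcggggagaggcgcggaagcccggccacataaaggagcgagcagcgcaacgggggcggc
The windows of Nf2 and Rdx held no match, that of Ezr held 1, and that of Msn held CACGTG, whose letters match on both strands. What these letters have to do with the levels in hypoxic cells was not tested. Of all 32851 promoter windows of the same length, 38.6% held at least 1 of these matches. A search of the same windows for the TEAD core GGAATG, present in 12.6% of all windows, gave no match in any of the 4 members, Rdx included, and neither did TTTGAA, the core of an element of cell cycle genes, present in 16.0% of all windows. A match is letters in a window and no measured site.

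Radixin transcripts were higher in dividing cells of both libraries. In mitotic cells Rdx had 268 and 265 CPM in runs 1 and 2 of NF2 KO, against 168 and 181 CPM in the other cells of those runs. In control it had 254 and 255 CPM in mitotic cells of runs 1 and 2, against 183 and 158 CPM in the other cells. Each mitotic set lay above each set of other cells, and the share of all genes for which this held was not computed. The ratio was 1.51 (1.43 to 1.59) in NF2 KO, past the 1.5-fold rule, and 1.495 (1.39 to 1.60) in control, just short of it. Of the genes tested in mitotic cells, 17.5% were called in NF2 KO and 14.3% in control. Over 5 equal parts of the mitotic score, Rdx stayed between 156 and 172 CPM in the lowest 4 parts and reached 245 CPM in NF2 KO and 240.0 CPM in control in the highest part. Mitotic cells were also deeper, with medians of 24052 UMIs in NF2 KO and 26905.5 UMIs in control, against 17186 UMIs and 18633 UMIs in the other cells. Ezr leaned the same way, with ratios of 1.51 (1.21 to 1.88) in NF2 KO and 1.47 (0.981 to 2.14) in control. Nf2 gave 1.21 (1.02 to 1.42) in NF2 KO and 1.18 (0.942 to 1.47) in control. Msn was lower by little, with ratios of 0.896 (0.869 to 0.924) in NF2 KO and 0.941 (0.908 to 0.974) in control.

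Ezrin transcripts were higher in venous cells of both libraries. Ezr had 27.1 and 15.03 CPM in venous cells of NF2 KO runs 1 and 2, against 11.2 and 8.52 CPM in the other cells. In control it had 11.3 and 14.6 CPM in venous cells of runs 1 and 2, against 6.42 and 5.34 CPM in the other cells. Venous cells were above the other cells in each of the 4 runs, and for how many other genes this held was not computed. The ratio was 2.08 (1.63 to 2.62) in NF2 KO, from 87 UMIs, and 2.32 (1.54 to 3.402) in control, from 33 UMIs, at levels below the filter in both libraries. Of tested genes, 14.5% in NF2 KO and 12.9% in control were called in venous cells. Macrophage markers summed to 289.5 CPM in venous cells and 61.7 CPM in other cells of NF2 KO, and to 127 CPM in venous cells and 57.8 CPM in other cells of control; neutrophil markers moved likewise. The part of either in the level of Ezr was not tested. Nf2 was somewhat higher in venous cells, with ratios of 1.29 (1.06 to 1.57) in NF2 KO and 1.29 (0.983 to 1.66) in control, as was Rdx, with 1.16 (1.08 to 1.24) in NF2 KO and 1.24 (1.13 to 1.353) in control. Msn had a ratio of 1.10 (1.06 to 1.14) in NF2 KO and 0.910 (0.871 to 0.951) in control.

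Interferon and capillary cells showed no contrast past the 1.5-fold rule for Nf2, Rdx and Msn, and Ezr was below its level filter. Of tested genes, 6.48% in NF2 KO and 10.1% in control were called in interferon cells, and 9.64% in NF2 KO and 11.4% in control in capillary cells. In interferon cells Rdx had ratios of 1.18 (1.11 to 1.26) in NF2 KO and 1.13 (1.04 to 1.24) in control, Nf2 had 1.09 in NF2 KO and 1.02 in control with intervals that include 1, and Ezr had 0.799 (0.579 to 1.08) in NF2 KO and 0.645 (0.327 to 1.16) in control. In capillary cells Msn was lower, at 659 CPM against 717 CPM in the other cells of NF2 KO and at 855 CPM against 992 CPM in the other cells of control, ratios of 0.919 (0.887 to 0.952) and 0.863 (0.825 to 0.901). Ezr had 0.663 (0.461 to 0.926) in NF2 KO and 0.897 (0.491 to 1.52) in control. Of 20 pairs of a member and a state, 3 went in opposite directions in both runs of each library, Msn in venous and interferon cells and Rdx in capillary cells, against 7.03% of all pairs of a tested gene and a state; the differences were not tested.

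Across the states the difference between the libraries kept its direction for Msn. NF2 KO over control gave 0.696 (0.666 to 0.728) in mitotic, 0.801 (0.766 to 0.839) in hypoxic, 0.784 (0.746 to 0.823) in interferon, 0.865 (0.820 to 0.913) in venous and 0.770 (0.730 to 0.813) in capillary cells. For Nf2 the ratios were between 0.846 and 0.978 in the 5 states, and every interval included 1. For Ezr they were between 0.965 in hypoxic and 1.93 in interferon cells, and the interval excluded 1 in mitotic and interferon cells. Rdx had its highest ratio in capillary cells, at 1.31 (1.18 to 1.47), with 223 CPM in NF2 KO and 169.5 CPM in control cells. In the other 4 states its interval included 1. The capillary set drew on different clusters in NF2 KO and control. Of its cells, 12.2% in NF2 KO and 3.17% in control were also in the mitotic set. In cluster 1, led by capillary genes, the Rdx ratio was 0.992 (0.906 to 1.09). The part of these unlike sets in the Rdx ratio was not tested. The share of tested genes called between the libraries was 8.71% in mitotic, 13% in hypoxic, 8.99% in interferon, 8.58% in venous and 11.8% in capillary cells.

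**Figure D3:**
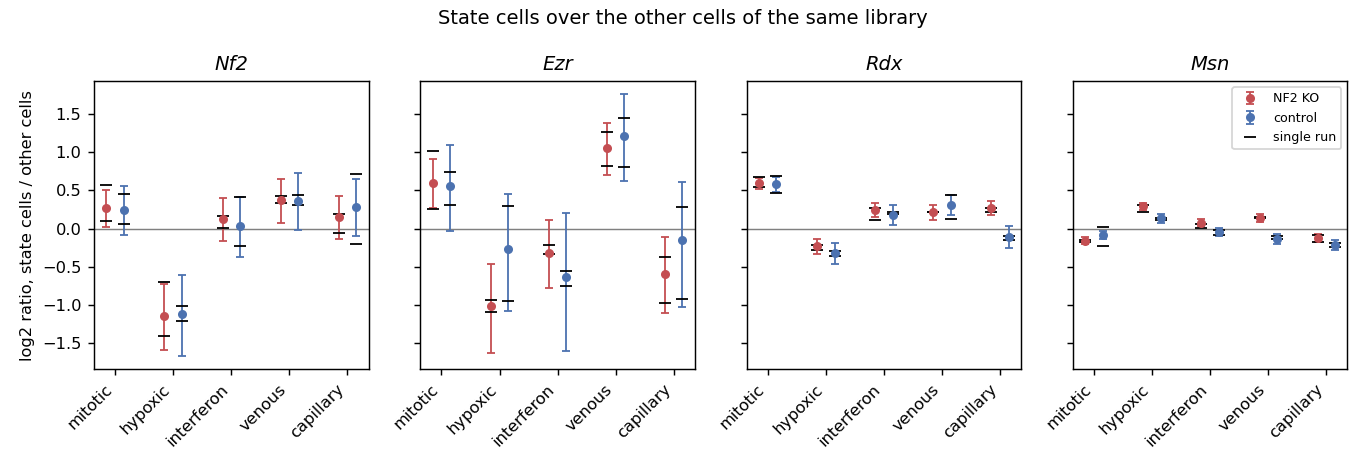
Log2 ratio of the level in state cells over the other cells of the same library, for the 5 states (horizontal axis); NF2 KO in red stands left of control in blue, bars are 95% counting intervals and black dashes the single runs. Nf2 was low in hypoxic cells and Rdx high in mitotic cells in both libraries.

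**Figure D4:**
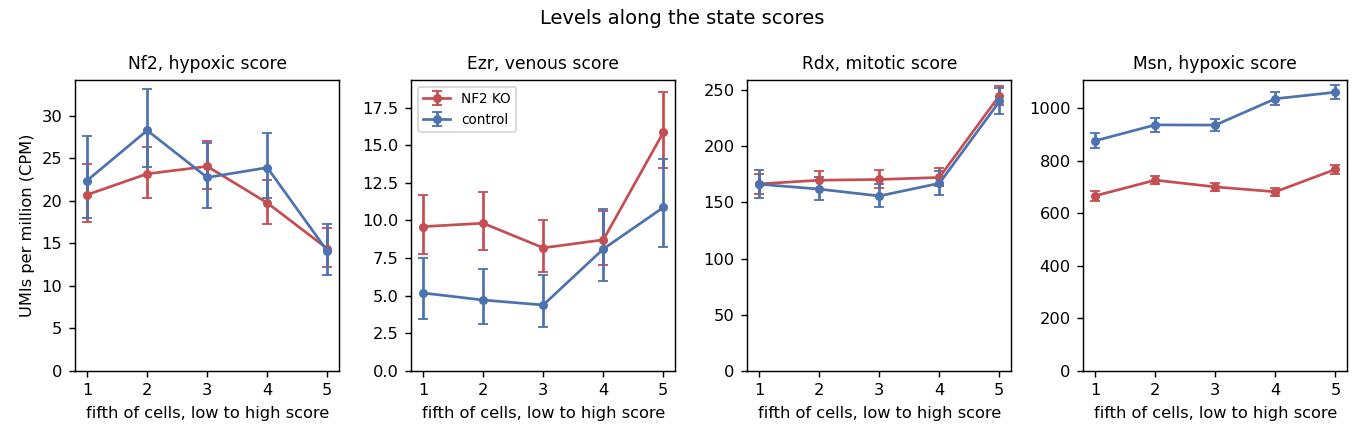
Level in CPM (vertical axes from 0) of a gene in 5 equal parts of the cells ordered by a state score, with 95% counting intervals, for NF2 KO in red and control in blue. Rdx in the highest mitotic part (245 CPM in NF2 KO, 240.0 CPM in control) and Ezr in the highest venous part stood above the lower parts, and Nf2 in the highest hypoxic part stood below them.

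The genes whose pattern was most like that of a member were sought over 22 sets of cells, each a cluster in 1 run of 1 library with at least 50 cells, by Pearson correlation of log2(CPM + 10). For Msn they were Fam78b (r = 0.94), Chst15 (0.92) and Wwtr1 (0.90), the last of which encodes TAZ. Wwtr1 had 215 CPM in NF2 KO and 303 CPM in control cells. For Rdx they were Tra2b (0.90), Ptma (0.87) and Rbm8a (0.86), for Nf2 they were Tpgs1 (0.91), Stk16 (0.90) and Rps6ka3 (0.89), and for Ezr Cetn3 (0.85), Tmem238 (0.85) and Larp1b (0.79). Between members, Msn ran against the others, with r of −0.50 to Rdx, −0.58 to Ezr and −0.28 to Nf2, whereas Rdx had r of 0.53 to both Nf2 and Ezr. The median r over all genes tested was −0.05 for Msn, 0.22 for Nf2, 0.12 for Rdx and 0.10 for Ezr. The sets share 2 libraries and their differences, and the genes were picked as the highest of all tested, so these values only describe the pattern.

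The proteins that act with this family were followed from fixed lists. Among 16 membrane proteins and adaptors that bind ERM proteins or merlin, 9 had enough level, 2 were higher, none was lower and 7 were not called (median log2 ratio −0.10). Over all genes tested, 2.74% were higher and 5.4% lower, with a median log2 ratio of −0.03, and the counts of the next lists stand against the same values. Sdc4, which encodes the heparan sulphate proteoglycan syndecan 4, had 93.7 and 60.5 CPM in NF2 KO runs 1 and 2, against 33.6 and 31.1 CPM in control runs 1 and 2, a ratio of 2.24 (2.08 to 2.40). Icam1, a leukocyte docking receptor whose tail binds ERM proteins, had 141 and 161 CPM in NF2 KO runs 1 and 2, against 72.4 and 92.2 CPM in control runs 1 and 2, a ratio of 1.86 (1.78 to 1.95). Pecam1, the sorted antigen and the most abundant of the list, had a ratio of 0.930 (0.917 to 0.943).

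Of 21 kinases and phosphatases that act on ERM proteins or merlin, 13 had enough level, 1 was lower and 12 were not called (median −0.08). Map4k4, a kinase that can phosphorylate the ERM tail threonine, had 212 and 218 CPM in NF2 KO runs 1 and 2, against 357 and 316 CPM in control runs 1 and 2, a ratio of 0.644 (0.627 to 0.662). Of the merlin partners and Hippo kinases, 16 had enough level, 1 was higher and 15 were not called (median −0.02). That 1 was Amotl2, an angiomotin that binds merlin and YAP and is itself a known YAP target, with 82.3 and 79.7 CPM in NF2 KO runs 1 and 2, against 41.2 and 38.5 CPM in control runs 1 and 2. Sptbn1, the spectrin gene that led this list in level, had a ratio of 0.742 (0.730 to 0.754).

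The other genes with a FERM domain gave the comparison with the wider fold. Of 41 in the tables, 17 had enough level, 2 were higher, 2 were lower and 13 were not called, with a median of −0.20 and 3 ratios above 1. Mylip, which encodes the ubiquitin ligase that marks the LDL receptor for degradation, was higher at 1.98 (1.80 to 2.18), and Epb41l2, of the band 4.1 family, at 1.66 (1.60 to 1.73). Myo10, the motor of filopodial tips, was lower at 0.572 (0.556 to 0.590), and Frmd4b at 0.577 (0.540 to 0.616). Fermt2, which encodes the integrin activator kindlin 2, was the most abundant of these, at 297 CPM in NF2 KO and 309 CPM in control cells, well below Msn.

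**Figure D5:**
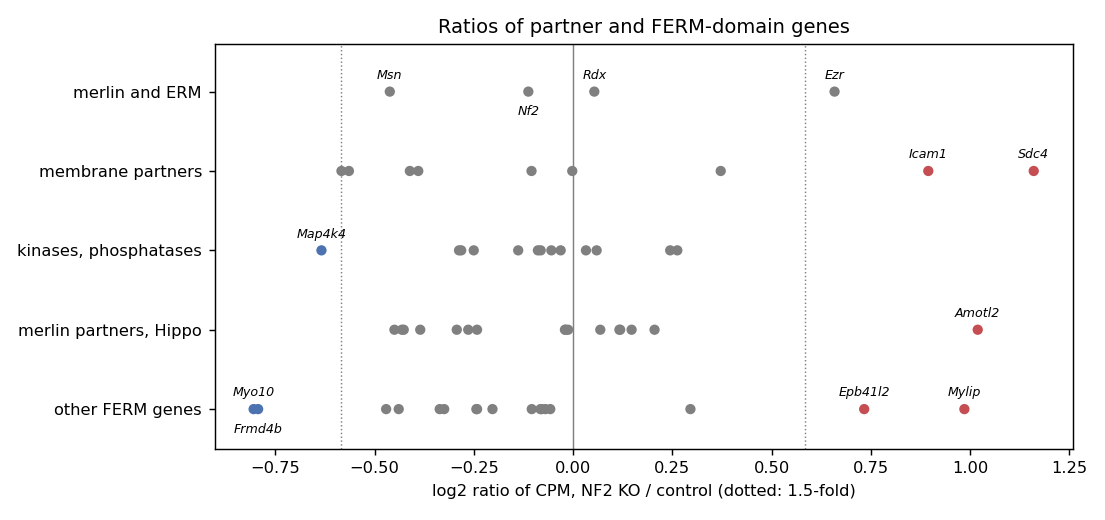
Log2 ratio of CPM, NF2 KO over control, for the 4 members and for each gene of 4 lists with a mean level of at least 20 CPM; dotted lines mark 1.5-fold, and red and blue points are genes called higher and lower. Msn (−0.46) lay left of 0 within the dotted lines and Ezr (0.66, below the level filter) right of them.

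Along the states, genes of these lists were set side by side in both libraries. In hypoxic cells 3 of the 9 membrane partners tested were lower in both (Icam1, Cd34 and Slc9a3r2) and Sdc4 was higher in both. Icam1 had 22.6 CPM in hypoxic cells and 168 CPM in other cells of NF2 KO, and 18.9 CPM in hypoxic cells and 90.6 CPM in other cells of control. Slc9a3r2, an adaptor that links membrane transporters to ERM proteins, had ratios of 0.446 (0.404 to 0.491) in NF2 KO and 0.404 (0.353 to 0.459) in control. Of the 16 other FERM genes tested, Fermt2 was higher in both, with ratios of 1.91 in NF2 KO and 1.68 in control. The polarity gene Mpp5, 1 of 15 merlin partners and Hippo genes, was also higher in both. In all, 3 of 52 distinct list genes were higher and 3 lower in hypoxic cells of both libraries, against 7.68% higher and 13.4% lower over all genes tested.

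In mitotic cells 53 list genes were tested, and those called were the cytokinesis kinase gene Cit, with ratios of 4.26 (3.68 to 4.91) in NF2 KO and 3.34 (2.84 to 3.92) in control, and Sdc4, which was lower. Over all genes, 9.15% were higher and 1.88% lower in both. Of 52 list genes tested in interferon cells, the adhesion receptor genes Icam1 and Vcam1 were higher (3.85%) and Sdc4 lower (1.92%), against 4.22% higher and 0.872% lower over all genes. Vcam1 had 501 CPM in interferon cells and 194 CPM in other cells of NF2 KO, and 487 CPM in interferon cells and 141 CPM in other cells of control. Of 52 tested in venous cells, Icam1, Prkch, Jak2 and Mylip were higher (7.69%) and Sdc4, Cd93 and Myo10 lower (5.77%), against 4.99% higher and 3.82% lower over all genes. Icam1 had 514 CPM in venous cells and 121 CPM in other cells of NF2 KO, and 321 CPM in venous cells and 60.7 CPM in other cells of control. In capillary cells Podxl, which encodes the sialomucin podocalyxin that binds ezrin through adaptors, was higher, with ratios of 1.75 (1.62 to 1.87) in NF2 KO and 1.84 (1.68 to 2.001) in control. Slc9a3r2 and Mylip were also higher and Sdc4 lower in capillary cells of both libraries, in all 3 higher and 1 lower of 52 tested, against 2.95% higher and 2.5% lower over all genes.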

How the data were processed

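Single-cell RNA was measured in 1 NF2 KO and 1 control library. The authors deposited natural log values, ln(1 + 10000 × UMIs / total of the cell), from which 100% of the UMI counts came out whole within 0.01 UMI. The submitters' processing notes list Cell Ranger 3.0.0, Seurat 3.1.1 and mm10. UMI counts had been assumed in the design, and the recovered ones were used. Quality limits were 500 genes, 1000 UMIs and 10% mitochondrial UMIs per cell. Scrublet's own threshold marked 0 cells, so it failed here; the 5% of cells with the top doublet scores were dropped from each library. Clustering used scanpy 1.11.5 (2000 variable genes, 30 principal components, 15 neighbours, Leiden resolution 0.8). Clusters were left out if their median depth was below 0.333 of their sample's and no leading gene was an endothelial marker, if markers of another type led them by 2 or more, or if they held under 50 cells. Cells under 5000 UMIs were then left out; this minimum and the size limit were chosen after the data were seen, and rebuilt clusters may differ from the study's. CPM have exact Poisson intervals, ratios exact conditional ones and shares Clopper-Pearson ones, at 95%; runs were not used as replicates. The ratio rule was tested on simulated data. Named genes were the 4 members, list genes past the rule (up to 4 per direction), the most abundant gene of each list (1 of these genes and 1 list are not reported here), the 3 genes most like each member and, chosen after their values were seen, list genes called in a state. The members and lists were chosen with earlier results of these data known.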

Additional observations from a re-analysis of the deposited data

Results flagged for a closer look

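Of 20 pairs of a member and a state, 3 had a ratio of state over other cells above 1 in both runs of one library and below 1 in both runs of the other. Over all tested genes, 7.03% of 29185 pairs of a gene and a state did so. The difference was not tested in any of them. Rdx in capillary cells had a ratio of 1.21 (1.14 to 1.28) in NF2 KO, with runs at 1.17 and 1.20, and 0.929 (0.840 to 1.03) in control, with runs at 0.937 and 0.899. In control its direction changed with the cells chosen, with ratios from 0.935 to 1.10 over 5 alternatives, 3 of them above 1. Msn in venous cells had a ratio of 1.10 (1.06 to 1.14) in NF2 KO, with runs at 1.11 and 1.10, and 0.910 (0.871 to 0.951) in control, with runs at 0.935 and 0.909. The venous set was mostly cluster 5 in NF2 KO (158 cells) and clusters 1 and 5 in control (38 and 34 cells). Msn in interferon cells had a ratio of 1.06 (1.02 to 1.09) in NF2 KO, with runs at 1.01 and 1.05, and 0.969 (0.931 to 1.01) in control, with runs at 0.947 and 0.991.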

How the results depend on the processing

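The direction of Msn, lower in NF2 KO, held in each of 14 alternatives, and that of Ezr, higher in NF2 KO, likewise. Leaving out 1 run at a time, the ratio of NF2 KO over control ranged from 1.38 to 1.94 for Ezr, 0.981 to 1.09 for Rdx, 0.665 to 0.759 for Msn and 0.895 to 0.961 for Nf2. With cells thinned to 2000 UMIs it was 1.09 for Nf2, 1.11 for Ezr, 0.963 for Rdx and 0.757 for Msn. With the same cluster weights it was 1.10 for Ezr, 0.980 for Rdx and 0.792 for Msn. Over clusters with at least 50 cells of each library, chosen after seeing the data, it was 1.24 for Ezr, 1.08 for Rdx and 0.747 for Msn. The mean of CPM per cell gave 1.32 for Ezr, and leaving out clusters led by a marker of another type gave 1.17 for Rdx. Msn was at 0.743 over all deposited cells and also when scaled by the median ratio. Genes called higher and lower numbered 65 and 92 at a fold of 2, 354 and 520 with a minimum of 5 CPM, and 1298 and 994 with no filter on low values. In the highest 5% of control cells the ratio of state over other cells was 1.39 for Rdx in mitotic, 0.256 for Nf2 in hypoxic and 3.52 for Ezr in venous cells; in the highest 20% of NF2 KO it was 0.651 for Nf2 in hypoxic cells. Of 200 alternatives for the 40 state ratios, 8 changed side of 1. The cause was not tested. No paired analysis was possible because each group has 1 library. Depth limits Ezr most, with 544 UMIs in NF2 KO and 186 UMIs in control.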
